A study of Mus musculus with 4 samples.

Results

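The genes described here build the machinery that carries newly made proteins into the endoplasmic reticulum (ER), cuts off their signal peptides and attaches N-linked sugars. They comprise 32 genes of 4 steps, chosen by name with earlier results of these data known. Of these, 6 serve targeting to the ER, 11 the channel and its partners, 5 signal peptidase and 10 the oligosaccharyltransferase. All 32 were measured, by 48 probes whose RefSeq accession maps to one of them, among 16524 named genes that gave a usable signal. Cerebellum RNA was taken at postnatal day 28 from C57BL/6 mice and read on 4 one-colour Agilent arrays. The 2 controls were Derlin-2flox/flox, for which the labels name no Cre. The 2 knockouts (Derlin-2_KO, here KO) were bred from Derl2flox/flox mice and nestin-Cre mice. The nestin promoter drives expression in the precursors of neurons and most glia, so blood vessels, blood cells and microglia are not its usual targets. Derlin-2 is a membrane protein of ER-associated degradation, the route by which misfolded proteins leave the ER. The labels number the samples without saying more about the animals, so every p-value measures the spread between these samples alone.

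In this pathway the signal recognition particle (SRP) binds a signal sequence as it leaves the ribosome and docks at a receptor on the ER. The chain then enters the Sec61 channel, helped by the translocon-associated proteins. Signal peptidase cleaves the signal sequence, and the oligosaccharyltransferase transfers a preformed sugar tree from a lipid to asparagine residues of the chain. The oligosaccharyltransferase exists in forms built around STT3A, which works beside the channel during translation, or STT3B, which also glycosylates sites that were passed over. In many secretory cells, genes of all these steps are induced together in the unfolded protein response, chiefly through XBP1 and ATF6.

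Between 66.4% and 69.4% of spots were well above background on each array, and 0 were saturated. The Derl2 signal in KO was 37.6% and 30.2% of control on its 2 probes, lower on both KO arrays than on both control arrays; the labels do not say which exons are removed. All markers listed for granule cells (5 of 5) and Purkinje cells (5 of 5) were well above background on every array. Slide positions 1 and 2 held the controls and positions 3 and 4 the KO samples, so position and genotype cannot be told apart. The choroid plexus list (9 of 10 markers measured, all 9 highest on control replicate 2) had a summed log2 signal of 7.16 there, against 2.94 on control replicate 1 and 3.01 and 3.02 in KO. The red blood cell list (3 of 4 markers measured, all 3 highest on control replicate 2) summed to 8.43 there, against 7.88 on control replicate 1 and 7.87 and 7.85 in KO. Because control replicate 2 stands apart in this way, the values without it are given beside the leading results. The summed oligodendrocyte signal (8 of 8 markers) was 8.80 and 8.72 in control and 8.52 and 8.70 in KO, and 5 of its 8 genes were lower on both KO arrays than on both controls, as were 32.1% of all genes. The same was seen for 4 of 6 microglia, 3 of 6 meningeal fibroblast, 2 of 5 granule cell, 2 of 5 Purkinje cell, 2 of 9 choroid plexus and 1 of 3 red blood cell markers. The part of these cell types in the results was not tested. In whole tissue, fewer cells of a type and less RNA per cell cannot be told apart.

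Most of the machinery differed little from control. Signals are given as log2 relative to the 75th percentile of the array, and a difference is KO minus control on that scale, from the brightest probe of a gene. The differences of the 32 genes ran from −0.41 (Tusc3) to 0.81 (Magt1) with a median of −0.079, against a median of −0.064 over all 16524 genes. The members' median moved to −0.023 without control replicate 2, −0.046 without KO replicate 1 and −0.022 without KO replicate 2. Without control replicate 1 it moved the other way, to −0.090. The median of all genes was −0.058, −0.060, −0.063 and −0.067 in the same order. The median size of the difference, regardless of sign, was 0.105 for the 32 genes and 0.136 for all genes. With limma, 0 of the 32 genes passed a Benjamini-Hochberg adjusted p under 0.05, as did 0% of all probes (0 of 37516, of which 5265 had an unadjusted p under 0.05; 98 passed without control replicate 2 and 1 without control replicate 1). At an unadjusted p under 0.05 there was 1 gene higher (Magt1) and 2 lower (Tusc3 and Sec11c), against a background of 3.16% of all genes higher and 5.65% lower. These 3 make up 9.38% of the 32, beside 8.81% of all genes in either direction, and 7.03% of genes within the members' range of signal, so the share is close to that of the array in general.

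Both KO arrays lay above both control arrays for 4 of the 32 genes and below them for 10. Over all genes the shares were 13.8% above and 32.1% below, which leaves the 32 genes near the background in each direction. With 3 arrays, which separate more easily, the shares of all genes were larger too. Without control replicate 2, 28.1% of the members and 24.8% of all genes were higher, and 37.5% and 44.6% were lower. Without KO replicate 2 these were 31.2% and 27.5% higher, and 43.8% and 49.3% lower. Without control replicate 1, 12.5% of the members and 22.6% of all genes were higher, and 56.2% and 46.2% were lower. Without KO replicate 1 these were 18.8% and 27.6% higher, and 59.4% and 49.3% lower. The direction in which the members exceeded all genes thus changed with the array left out. The split depended on how the arrays were scaled. Of the genes with separate groups, 28.6% of the members and 30.0% of all genes were higher in KO under the 75th percentile. Quantile normalization gave 56.2% and 42.4%, and scaling to spike-in probes gave 62.5% and 59.7%. The 95% interval of the difference lay within 1.5-fold of control for 29 of the 32 genes and within 2-fold for 31, Magt1 being the exception.

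**Figure D1:**
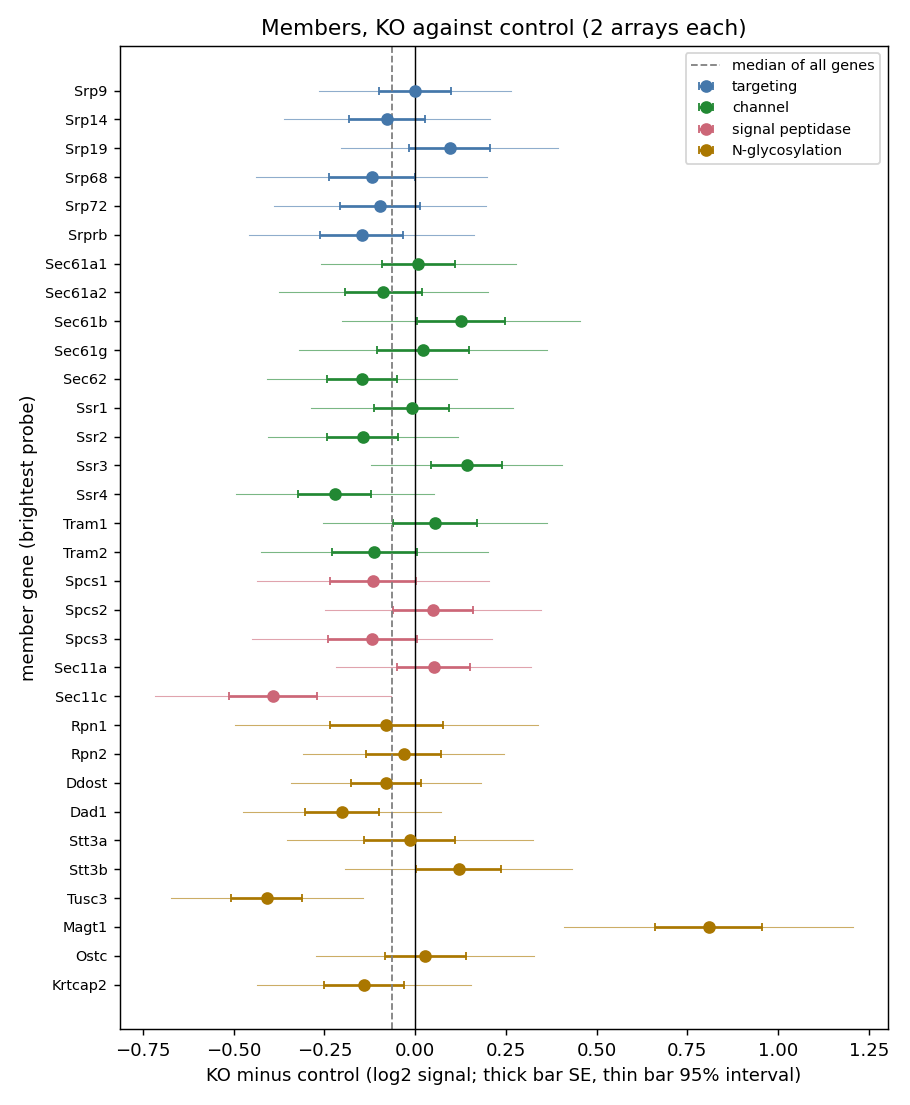
Difference between KO and control for each of the 32 genes (log2 signal of the brightest probe; points are means of 2 arrays per group, thick bars the SE and thin bars the 95% interval), coloured by step, with the median of all genes as a dashed line at −0.064. Magt1 lies far to the right at 0.81, Tusc3 and Sec11c lie to the left at −0.41 and −0.39, and the other intervals all include 0.

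**Figure D2:**
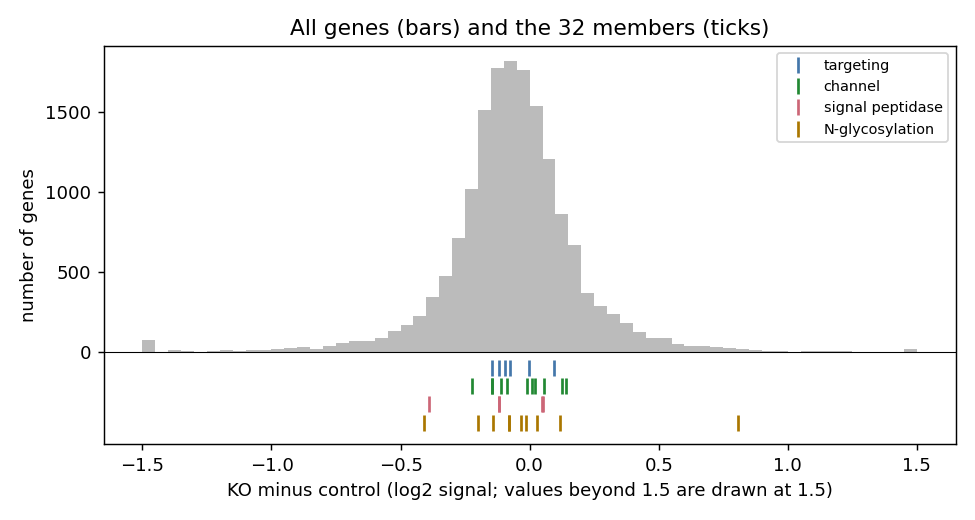
Histogram of the difference between KO and control for 16524 genes (bars, log2 signal) with the 32 genes as ticks in a row for each step. The ticks fall within the body of the distribution apart from Magt1.

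The largest shift in the list lay in the oligosaccharyltransferase, in a pair of genes that can take the same place. Magt1 and Tusc3 encode alternative oxidoreductase subunits of the STT3B form, which help it to reach sites near cysteines. On the Magt1 probe the log2 signal was −0.74 and −0.63 in control and 0.28 and −0.035 in KO. Both KO arrays were higher than both controls, and KO replicate 1 was the higher of the KO arrays. The means were −0.69 ± 0.076 (SD, n = 2) and 0.12 ± 0.22 (SD, n = 2), a difference of 0.81 (SE 0.15; 95% interval 0.41 to 1.21; limma unadjusted p 0.0042, adjusted p 0.273), or 1.75-fold. Of all genes, 2.23% had a larger difference in either direction. For Tusc3 the signal was 2.27 and 2.32 in control and 1.87 and 1.90 in KO. Replicates lay within 0.05 of each other in this gene and the groups did not overlap. The means were 2.30 ± 0.034 (SD, n = 2) and 1.89 ± 0.018 (SD, n = 2), a difference of −0.41 (SE 0.098; 95% interval −0.67 to −0.14; limma unadjusted p 0.0118, adjusted p 0.279), which left 75.3% of control. Each gene had 1 probe on the array, so neither value has a second probe beside it. Without control replicate 2 the differences were 0.86 for Magt1 and −0.39 for Tusc3. The array of control replicate 1 carries an area of raised local background, and neither probe lies in it; of the 48 probes, 1 does, that of Rpn1.

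For scale, Hspa5, which encodes the ER chaperone BiP, had a signal of 4.69 and 4.78 in control and 5.73 and 5.38 in KO on its brightest probe. Its difference was 0.82 (SE 0.16; limma adjusted p 0.273). As with Magt1, KO replicate 1 was the higher of the KO arrays. The other Hspa5 probes gave 0.95 and 0.91. Xbp1 read 4.82 and 4.78 in control and 5.58 and 5.41 in KO on its brightest probe. The Xbp1 difference was 0.70 (SE 0.11; limma unadjusted p 0.0027, adjusted p 0.273), and its other probes gave 0.81 and 0.74. Whether Xbp1 bears on the 32 genes was not tested. The interval of 31 of the 32 genes ended below the Hspa5 difference, and that of Magt1 did not. This sets each interval against the Hspa5 value alone, which has its own interval of 0.39 to 1.24. Some of the 31 reach into it, such as Sec61b (up to 0.45) and Stt3b (up to 0.43). Whether each of the 31 differed by less than Hspa5 was not tested.

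**Figure D3:**
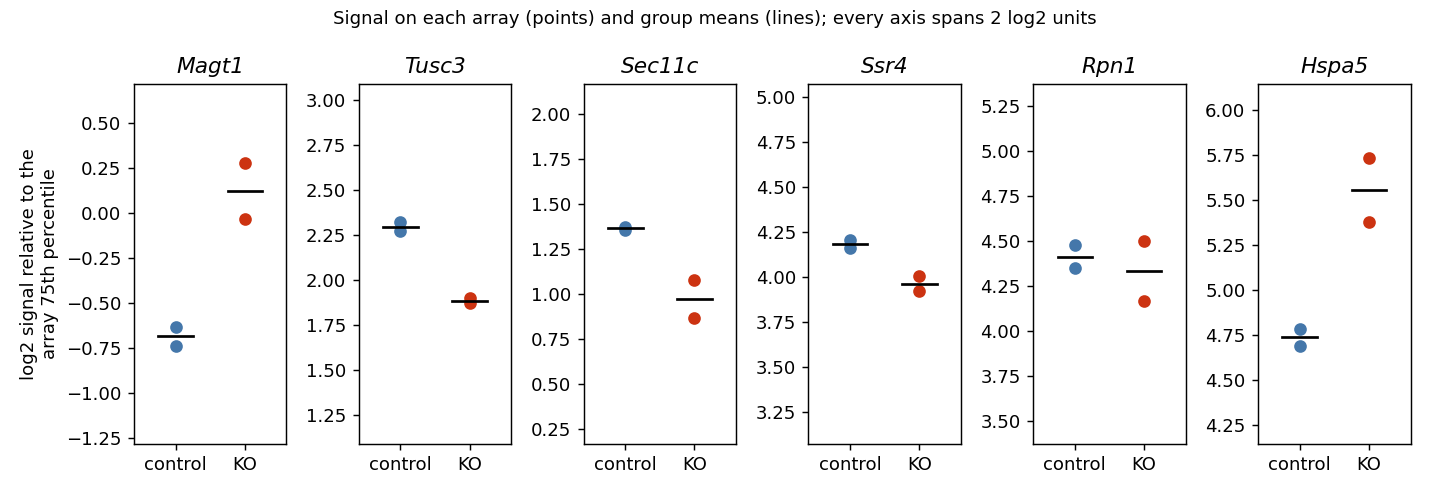
Log2 signal (array 75th percentile set to 0) on each array (points) and group means (lines) for 5 genes of the machinery and Hspa5, with every vertical axis spanning 2 units. The groups are apart for Magt1, Tusc3, Sec11c, Ssr4 and Hspa5 and overlap for Rpn1, whose KO arrays lie on either side of both controls.

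The catalytic subunits had smaller differences. Stt3b, the catalytic subunit that works with Magt1 or Tusc3, had a signal of 2.13 and 2.31 in control and 2.35 and 2.33 in KO. KO exceeded control on both arrays, by a difference of 0.12 (SE 0.12; 95% interval −0.19 to 0.43), which is within the spread of the controls. Stt3a, the other catalytic subunit, read −2.25 and −2.27 in control and −2.16 and −2.39 in KO, so the groups overlapped (difference −0.015, SE 0.13; 95% interval −0.35 to 0.32); its sign turned under quantile normalization, spike-in scaling and normexp background correction. A dimmer Stt3a probe differed by 0.19 (SE 0.19). Ostc and Krtcap2, small subunits found in the STT3A form, differed by 0.027 and −0.14, with separate groups for Krtcap2 alone.

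The subunits shared by both forms differed by −0.20 to −0.032 on their brightest probes, all below 0, as were 63.9% of all genes. The −0.20 is that of Dad1, whose probes disagree, as described below. With spike-in scaling, under which 44.9% of all genes were below 0, Rpn1 (0.0071), Rpn2 (0.054) and Ddost (0.0057) lay above 0. Rpn2 (0.031) also did with quantile normalization. Rpn1 and Rpn2, the ribophorins, differed by −0.079 and −0.032. The Rpn1 probe lies in the area of raised background on control replicate 1; with spots in such areas left out, Rpn1 is dropped and the median of the oligosaccharyltransferase genes moves from −0.056 to −0.031. Ddost, a core subunit with separate groups, differed by −0.081. Dad1, whose name comes from its protection against apoptosis, had a signal of 4.32 and 4.25 in control and 4.06 and 4.11 in KO. It was lower on both KO arrays on this probe, with a difference of −0.20 (SE 0.10; limma unadjusted p 0.111). A much dimmer Dad1 probe, designed to another transcript accession, read −3.98 and −3.93 in control and −3.37 and −3.78 in KO. That probe was higher on both KO arrays (0.38, SE 0.17), so the probes of Dad1 disagree. No direction is given for it here.

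In signal peptidase the catalytic subunits also come as a pair, Sec11a and Sec11c. The Sec11c signal was 1.37 and 1.35 in control and 1.08 and 0.87 in KO. Both KO arrays were lower, and they differed from each other by more than the controls did. The means were 1.36 ± 0.013 (SD, n = 2) and 0.97 ± 0.15 (SD, n = 2), a difference of −0.39 (SE 0.12; 95% interval −0.72 to −0.066; limma unadjusted p 0.0283, adjusted p 0.317), which left 76.3% of control. Without control replicate 2 it was −0.40, and without KO replicate 2 it was −0.28. Sec11c had 1 probe.

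Sec11a differed by less. Its signal was 2.389 and 2.455 in control and 2.489 and 2.457 in KO, with a difference of 0.051 (SE 0.0998; 95% interval −0.22 to 0.32), and its second probe gave 0.064. The KO arrays lay above the controls on both probes, by less than the gap between the controls on the brighter one. The remaining subunits, Spcs1, Spcs2 and Spcs3, which hold the complex together and help it to choose its substrates, differed by −0.12, 0.049 and −0.12, and the groups overlapped for each.

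**Figure D4:**
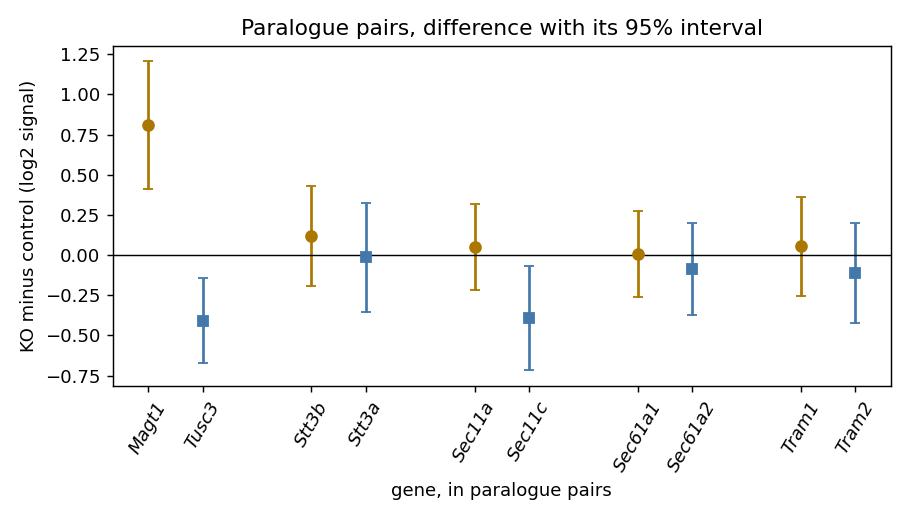
Difference between KO and control (log2 signal) with its 95% interval for the 5 pairs of related genes; circles are the first and squares the second gene of a pair. Magt1 and Tusc3 lie on opposite sides of 0 with intervals that exclude it, Sec11c lies below 0, and the intervals of the other genes include 0.

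The change within each pair was compared directly. The Magt1 difference exceeded that of Tusc3 by 1.22 on the log2 scale. The corresponding gaps were 0.44 between Sec11a and Sec11c, 0.17 between Tram1 and Tram2, 0.13 between Stt3b and Stt3a and 0.096 between Sec61a1 and Sec61a2. Set against their control mean, the within-array gap of Magt1 over Tusc3 moved by −0.030 and 0.030 in the controls and by 1.39 and 1.05 in KO. A two-sided exact permutation test gave p = 0.333 for 4 of the 5 pairs, which is the smallest that 2 against 2 arrays allow, and 0.667 for Stt3b and Stt3a (0.417 and 0.667 adjusted over the 5 pairs).

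The channel showed no common direction. Its 11 genes ran from −0.22 to 0.14 with a median of −0.0091. With separate groups, 1 was higher and 4 were lower, beside 13.8% and 32.1% of all genes. This balance moved with the scaling, as did that of all genes. Under quantile normalization the median was 0.043 with 3 higher and 3 lower, beside 18.4% and 24.99% of all genes. Under spike-in scaling the median was 0.077 with 4 higher and 3 lower, beside 25.01% and 16.9% of all genes. Sec61a1 encodes the pore-forming subunit. Its signal was 3.565 and 3.569 in control and 3.61 and 3.54 in KO, a difference of 0.0085 (SE 0.0999; 95% interval −0.26 to 0.28), with the KO arrays on either side of the controls. Its dimmer probes differed by 0.13, with overlapping groups, and by 0.33, higher on both KO arrays than on both controls. The related Sec61a2 read 1.30 and 1.31 in control and 1.29 and 1.15 in KO (difference −0.087, SE 0.107). A dimmer Sec61a2 probe, at −2.15 and −2.27 in control and −1.84 and −2.11 in KO, lay the other way by 0.23 (SE 0.14). The small subunits Sec61b and Sec61g differed by 0.13 and 0.022, with overlapping groups on these probes. The other Sec61b probe gave −0.0066 with overlapping groups. The other Sec61g probe gave 0.14 and was higher on both KO arrays than on both controls.

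Among the partners of the channel, the 4 translocon-associated proteins, which assist some signal sequences and sit beside the oligosaccharyltransferase, went different ways. Ssr4 had the largest difference of this step. It read 4.16 and 4.21 in control and 3.924 and 4.005 in KO, lower on both KO arrays, with a difference of −0.22 (SE 0.10; limma unadjusted p 0.0887). Its second probe, for another transcript accession, gave −0.26 (SE 0.11) and also had separate groups. Ssr2 was lower on both of its probes, by −0.14 and −0.23, with separate groups on each. Ssr3 read 3.75 and 3.78 in control and 3.90 and 3.92 in KO, higher on both KO arrays by 0.14 (SE 0.097); its dimmer probe gave −0.090 with overlapping groups. Ssr1 differed by −0.0091 and, on a dimmer probe, by 0.035. None of these differences passed the unadjusted threshold. The Ssr4 difference kept its sign under every scaling and was smallest, at −0.14, with spike-in scaling.

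Sec62, a channel partner for short and post-translationally imported proteins, read 4.53 on both control arrays and 4.36 and 4.41 in KO. The groups were apart by a small amount (difference −0.15, SE 0.098). Tram1, which contacts signal sequences as they enter the membrane, differed by 0.055 (SE 0.115), and its relative Tram2 by −0.11 (SE 0.117). The groups overlapped for both. The Tram1 signal was −0.13 and −0.094 in control and 0.034 and −0.15 in KO, and that of Tram2 was −2.48 and −2.30 in control and −2.47 and −2.53 in KO.

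Targeting was the step with the narrowest range. Its 6 genes ran from −0.15 to 0.096 with a median of −0.087, and 1 of the 6, lower, had separate groups. Quantile normalization and spike-in scaling each gave 2 higher and 0 lower instead, with medians of −0.046 and −0.00087. All genes moved in the same direction, their median going from −0.064 to −0.027 and 0.023. Their share with separate groups went from 13.8% to 18.4% and 25.01% higher, and from 32.1% to 24.99% and 16.9% lower. The gene with separate groups was Srprb, the membrane-anchored subunit of the SRP receptor, at −1.28 and −1.15 in control and −1.43 and −1.30 in KO. Its KO arrays lay below both controls by little (difference −0.15, SE 0.115; limma unadjusted p 0.263), and its other probe gave −0.052 with overlapping groups. Of the SRP proteins, Srp9 and Srp14, which slow translation while the ribosome is carried to the ER, differed by −0.00042 and −0.078. Srp19, which helps to assemble the particle on its RNA, differed by 0.096, and Srp68 and Srp72 by −0.12 and −0.097. The 3 probes of Srp72 gave −0.097, −0.015 and −0.0040. The limma unadjusted p of the 6 genes was 0.263 or more.

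**Figure D5:**
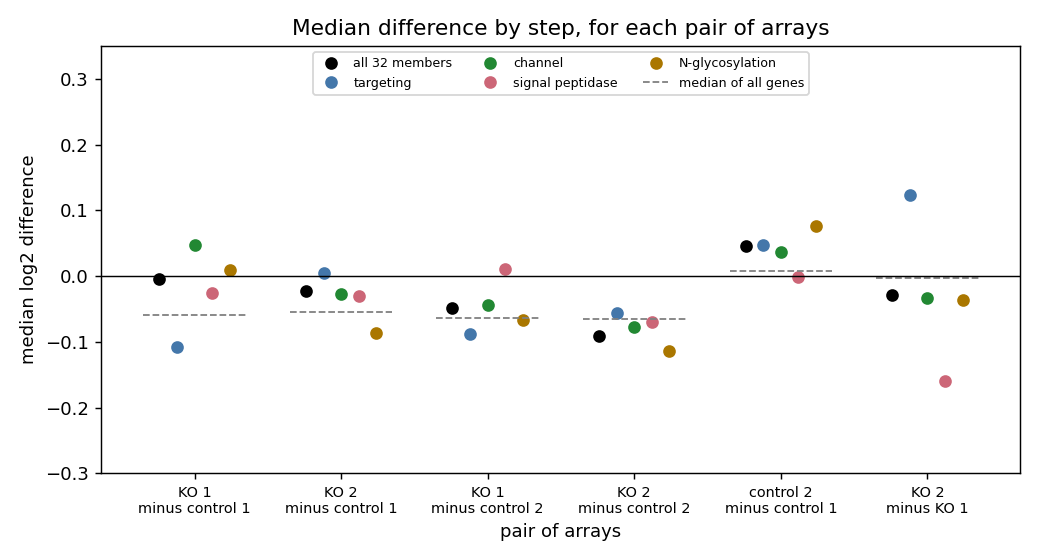
Median log2 difference over all 32 genes and over each step for each pair of arrays; the 4 pairs on the left set a KO against a control array, the 2 on the right compare replicates, and dashed lines give the median of all genes. The medians between groups lie in the same range as those between replicates.

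Array by array, the median of the 32 genes in KO replicate 1 was −0.0049 against control replicate 1 and −0.049 against control replicate 2. In KO replicate 2 it was −0.022 and −0.091. The control arrays differed from each other by 0.046, with 26 of the 32 genes higher on control replicate 2. By step, the N-glycosylation median ran from −0.11 to 0.0099 over the 4 pairs and the channel median from −0.078 to 0.048. The targeting median ran from −0.11 to 0.0042, and differed by 0.12 between the KO arrays. That of signal peptidase ran from −0.070 to 0.011 and differed by −0.16 between the KO arrays. In these last 2 steps the gap between KO replicates was as large as any gap between the groups, and differences between the steps were not tested.

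Other genes of the pathway were read from a list of 53 names, of which 47 matched a probe and 46 had a usable signal. Of these 46, 0 passed an adjusted p under 0.05 with limma and 0 had an unadjusted p under 0.05; 2 were higher and 20 lower with separate groups, beside 13.8% and 32.1% of all genes. The ER membrane complex, an insertase for membrane proteins that Sec61 handles poorly, was below control for 10 of 10 genes (63.9% of all genes), 8 of them with separate groups (32.1% of all genes), with a median of −0.17 (range −0.24 to −0.061). Under spike-in scaling 8 of the 10 were below control and 4 separate, with a median of −0.085, beside 44.9% and 16.9% of all genes and a median of 0.023 over all genes. Emc7, named after its values were seen, read 4.69 and 4.76 in control and 4.46 and 4.53 in KO (limma unadjusted p 0.0831). In the other lists the median was −0.061 for 12 genes of targeting and insertion and −0.071 for 22 genes that build the lipid-linked sugar; both turned above 0 under spike-in scaling, at 0.026 and 0.016. Tmem258 and Ost4, further subunits of the oligosaccharyltransferase, differed by −0.12 and −0.16.

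The genes of this list with the smallest p in each direction were Get3 and Mpdu1 below control and Alg13 and Srp54a above it. Get3, which delivers tail-anchored proteins, differed by −0.26 (SE 0.105; limma unadjusted p 0.063), and Mpdu1, needed for use of the mannose donor, by −0.27 (SE 0.11). Alg13, part of the enzyme that adds the second sugar, differed by 0.23 (SE 0.13). Srp54a, the SRP subunit that binds the signal sequence, differed by 0.40 (SE 0.24), with KO replicate 2 far above the other arrays: 3.21 and 3.15 in control, 3.26 and 3.90 in KO. Mouse Srp54 genes are near-identical copies, so this value is uncertain. Srp54b, on a dim probe, differed by 0.23 (SE 0.16) with overlapping groups, and Srp54c by −0.014.

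Promoters were searched on both strands for elements of the unfolded protein response. The RefSeq table of build GRCm38.p6 (300 bases, from 250 before to 50 after a gene's start) held 25 promoters for 23 of the 32 genes. Tusc3 and Sec11c were not among the 23, so neither was searched. The sequences of Hspa5 and Magt1 are shown because these genes had nearly the same difference, and only the 250 bases before the start are printed. Capitals mark the fixed letters of the ER stress response element (CCAAT, then 9 free bases, then CCACG), or its CCACG part wherever it occurs. The first stands at chr2:34771840-34772089 on the plus strand and the second at chrX:106011803-106012052 on the minus strand, each written in the direction of its gene.
Hspa5: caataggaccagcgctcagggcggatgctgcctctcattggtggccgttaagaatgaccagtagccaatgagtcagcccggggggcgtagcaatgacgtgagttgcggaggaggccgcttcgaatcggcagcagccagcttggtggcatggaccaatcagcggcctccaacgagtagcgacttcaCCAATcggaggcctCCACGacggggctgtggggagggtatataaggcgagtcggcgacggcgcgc
Magt1: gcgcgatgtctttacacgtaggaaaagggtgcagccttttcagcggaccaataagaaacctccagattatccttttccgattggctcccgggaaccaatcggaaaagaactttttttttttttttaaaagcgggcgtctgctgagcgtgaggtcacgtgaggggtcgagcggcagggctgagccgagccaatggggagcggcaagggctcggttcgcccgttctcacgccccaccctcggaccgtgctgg
The Hspa5 stretch holds the full element, and the Magt1 stretch has no match to it or to CCACG. A lack of match says only that these letters are not in this window.

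The full element was found in 0 of the 25 member promoters and in 0.119% of all 32851 promoters of that length. An element this rare would be missing from most sets of 25 promoters, so the 0 does not set the members apart. The form called ERSE-II (ATTGG, 1 free base, CCACG) was found in 1 of 25, at Krtcap2, where the match ATTGGACCACG starts 17 bases after the annotated start (0.0365% of all promoters); Krtcap2 differed by −0.14. TGACGTGG, a core bound by XBP1 and ATF6, was found in 0 of 25 (0.676% of all), and the same limit holds for it. The short CCACG, which the first 2 elements contain, was present in 16 of 25 promoters, of 15 genes, and in 32.8% of all promoters or 43.0% of those of genes measured here. It occurred in genes of every step. Examples are Srprb, Ssr3, Spcs1 and Ddost, whose differences were −0.15, 0.14, −0.12 and −0.081, each with a 95% interval that includes 0. Whether its presence goes with the difference of a gene was not tested.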

How the data were processed

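Titles gave each sample's group and number. The authors' deposited scanner files hold a processed intensity per spot, background subtracted and detrended within the array and not scaled between arrays, made, per the file headers, by Agilent Feature Extraction 12.1.1.1; the submitters' processing notes name version 10.7.1.1. RNA (150 ng per sample) was labelled with Cy3, per the labels. The deposited series table holds the authors' log2 values, whose scale and centring the labels do not state; it served as an alternative, through differences between arrays alone.

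The log2 processed signal was averaged over a probe's spots, without control and outlier-flagged spots, and the array's 75th percentile was taken off. Probes well above background on both arrays of a group were kept (37516 of 56605). All 48 probes of the 32 genes passed, each well above background on all 4 arrays. RefSeq accessions named 32994 of 35886 probes through a table of GRCm38.p6. The comparison of KO with control used limma 3.58.1 (R 4.3.3) without covariates, with 4.35 degrees of freedom and adjustment over every kept probe. It was checked on simulated data. Named in full are genes with an unadjusted p under 0.05, the leading genes of each step, related pairs and genes whose probes disagree. The members and lists were chosen with earlier results of these data known. The exact tests on related pairs were added after the values were seen. Protein sequences were not used here.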

Additional observations from a re-analysis of the deposited data

How the results depend on the processing

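The number of arrays limits every value: with 2 against 2 an exact test cannot give p under 0.333, and the 95% interval of a member's difference reached a median of 0.30 on the log2 scale to either side. Magt1 (0.65 to 0.96), Tusc3 (−0.43 to −0.32) and Sec11c (−0.50 to −0.28) kept their direction and stayed short of the adjusted threshold in all 16 alternatives; their smallest adjusted p were 0.122, 0.155 and 0.199, with an intensity trend and robust variances. Normexp used the median spot intensity with an offset of 50. The median of all probes, −0.028, moved most under spike-in scaling (7 probes), to 0.058. Applying the alternatives to the other pathway genes was chosen after seeing the data.

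The count of all probes past the threshold (0) became 1 each under spike-in scaling, quantile normalization, scaling to the median of bright probes and omission of spots on areas of raised background, 2 under normexp and 4 under the intensity trend. With an array left out it ran from 0 to 98, the highest without control replicate 2, when a lone control is assumed to vary like the KO arrays. Members with separate groups (4 higher, 10 lower) became 9 higher under quantile normalization (28.1%, beside 18.4% of all genes), 2 higher under scaling to the median of bright probes (those well above background on every array; 6.25%, beside 13.2%), and 10 higher and 6 lower under spike-in scaling (31.2% and 18.8%, beside 25.01% and 16.9%); with an array left out they ran from 4 to 10 higher and from 12 to 19 lower (12.5% to 31.2% and 37.5% to 59.4%, beside 22.6% to 27.6% and 44.6% to 49.3% of all genes), fewer arrays being easier to separate. The members' median (−0.079) was −0.026 under quantile normalization, 0.0079 under spike-in scaling and −0.029 with all probes of a gene averaged, and ran from −0.090 to −0.022 with an array left out. 

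Values near 0 changed sign: Ssr1 (−0.0091) to 0.043 under quantile normalization, 0.077 under spike-in scaling, 0.019 under normexp, −0.061 to 0.043 with an array left out and 0.013 with probes averaged; Stt3a (−0.015) to 0.010, 0.072, 0.0095, −0.13 to 0.10 with an array left out and 0.088 with probes averaged; Sec61a1 (0.0085) to −0.038 under normexp and −0.029 to 0.046 with an array left out; Tram1 (0.055) to −0.035 to 0.15 with an array left out. With all probes averaged, Sec61a2 (−0.087) became 0.074 and Dad1 (−0.20) became 0.090, their dimmer probes pointing the other way. For the other changes the cause was not tested. With the replicate number as a block (replicate block), no call changed: 0 probes passed and Magt1 stood at 0.81 (limma adjusted p 0.272). Same-numbered arrays deviated together only weakly (r = 0.124 over probes, which are not independent), and nothing in the labels pairs them.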
